A study of Mus musculus with 35 samples.

Results

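The genes described here are 10 early genes of neuronal activity, namely Fos, Fosb, Junb, Egr1, Npas4, Nr4a1, Ier2, Arc, Dusp1 and Btg2, in the mouse hypothalamus. They were taken by name from the 49568 gene names of the deposited count tables, all 10 were found, and all 10 passed the filter on low counts that left 18063 genes for testing. PolyA RNA was sequenced from the hypothalamus of 35 male mice of strain B6/J, with 1 library per mouse, at Zeitgeber time 16 h, counted from lights-on. By the labels, 10 control mice were fed freely and 10 were fasted for 16 h, 5 mice of the mutant PER2-S662D were fed and 5 fasted, and 5 mice labelled Per2 knockout were all fasted. PER2 is a repressor of the circadian clock, and in PER2-S662D an aspartate replaces a serine that can be phosphorylated. The design puts 3 questions to these genes: whether a fast changes them, whether the S662D change does, and whether the fasting response differs between the genotypes. The labels used here do not say which allele the knockout carries, how the S662D mice were made, or the age of the mice.

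Early genes are transcribed within minutes of a stimulus, from factors already in the cell, without new protein having to be made first. In neurons calcium entry and kinase cascades act on factors such as CREB and SRF at their promoters, and their RNA is short-lived. In the hypothalamus they are widely used as markers of recently active cells. Fos, Fosb and Junb encode subunits of the AP-1 transcription factor, Egr1 a zinc finger factor, Npas4 a factor known to respond selectively to calcium in neurons, and Nr4a1 an orphan nuclear receptor. Ier2 encodes a small nuclear protein, Arc a synaptic protein that acts on glutamate receptor trafficking, Dusp1 a phosphatase that inactivates MAP kinases and is also a known target of the glucocorticoid receptor, and Btg2 an antiproliferative co-regulator.

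The promoters are shown because these genes are known to share a binding element for CREB. RefSeq promoter windows (build GRCm38.p6, from 250 bases before the start site to 50 after it) were found for 7 of the 10 genes, and Egr1, Arc and Ier2 were not matched. The CREB core motif TGACG, searched on both strands, lay in 7 of these 7 windows, against 20.8% of the 32851 windows of the same length in the table. The longer element TGACGTCA, which holds the core on both strands, lay in 2 of the 7 windows (Dusp1 and Btg2), against 1.79% of all windows. The EGR motif GCGNGGGCG lay in 3 of 7 (Fosb, Nr4a1 and Btg2), against 5.55%. The CArG box bound by SRF lay in 0 of 7, against 1.63%, which says only that these letters are not in these windows. Each stretch below runs 5′ to 3′ on the gene's strand and holds the core motifs in capitals, where CGTCA is the same motif on the other strand. The stretches are Fos at chr12:85473749-85473840 (plus strand), Fosb at chr7:19310089-19310117 (minus), Junb at chr8:84978838-84978866 (minus), Npas4 at chr19:4990124-4990162 (minus), Nr4a1 at chr15:101266601-101266822 (plus), Dusp1 at chr17:26508596-26508675 (minus) and Btg2 at chr1:134079302-134079333 (minus). A match describes the letters and does not show that a factor was bound.
Fos: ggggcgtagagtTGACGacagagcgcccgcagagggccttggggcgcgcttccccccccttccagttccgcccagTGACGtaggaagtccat
Fosb: tggagttgcgggTGACGcaagcgcggggg
Junb: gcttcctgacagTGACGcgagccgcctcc
Npas4: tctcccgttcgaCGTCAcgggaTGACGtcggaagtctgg
Nr4a1: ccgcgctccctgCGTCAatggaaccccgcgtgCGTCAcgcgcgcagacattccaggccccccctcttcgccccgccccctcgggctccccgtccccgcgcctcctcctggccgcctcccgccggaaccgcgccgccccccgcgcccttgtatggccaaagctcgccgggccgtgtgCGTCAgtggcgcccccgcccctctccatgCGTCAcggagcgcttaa
Dusp1: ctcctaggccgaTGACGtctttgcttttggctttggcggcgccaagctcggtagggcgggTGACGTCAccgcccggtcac
Btg2: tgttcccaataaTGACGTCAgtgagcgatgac

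Depth was 17959586 to 37027342 assigned counts per library, with the deepest libraries in the S662D groups. The hypothalamic peptide genes Avp, Oxt, Hcrt and Pmch were present in every library, and none of the 12 hypothalamic markers was at 0 in any library. Per2, read as a check of the labels, stood at 28.2 to 33.4 CPM (the count of a gene over the TMM-scaled library total) in the libraries labelled Per2 knockout and at 26.1 to 33.1 CPM in fasted controls, so its RNA was not lower there. Counts were summed over the whole gene, so the loss of a part of it was not tested. In the S662D mice Per2 RNA was lower than in controls, by 0.59 (SE 0.07) on the log2 scale when fed (adjusted p = 1.18e-07, edgeR). Library numbers in the file headers put controls 1 to 5 (121 to 130), the labelled knockout (136 to 140), controls 6 to 10 (141 to 150) and S662D (171 to 180) in separate ranges, so in each comparison of genotypes the genotype and the range of library numbers cannot be told apart. Fed libraries had the lower numbers of their range (121 to 125, 141 to 145 and 171 to 175). The fasted ones had the higher numbers (126 to 130, 146 to 150 and 176 to 180). Within a range, feeding state and library number thus cannot be told apart either. The names of 6 S662D libraries (replicates 2, 3 and 4 in both states) carry an additional final digit whose meaning is not given.

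Levels of the 10 genes were compared per kilobase of exon, as CPM per kb over the 35 mice. Dusp1 was highest at 10.8 ± 2.36 (SD, n = 35), followed by Fos at 7.66 ± 1.60, Nr4a1 at 7.66 ± 1.10 and Egr1 at 7.21 ± 1.26. Junb stood at 6.29 ± 1.13 and Arc at 6.17 ± 1.11 CPM per kb. From Dusp1 down to Arc, the mean ± SD ranges of neighbours in this order overlapped. Ier2 at 4.07 ± 0.75 and Btg2 at 3.68 ± 0.55 CPM per kb came next and overlapped each other. Npas4 at 1.29 ± 0.26 and Fosb at 0.58 ± 0.18 CPM per kb were lowest, each apart from its neighbours by more than their SDs. Fosb was also the gene with the fewest reads, 26 to 141 counts per library, so that its CPM is the least precise of the 10.

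**Figure D1:**
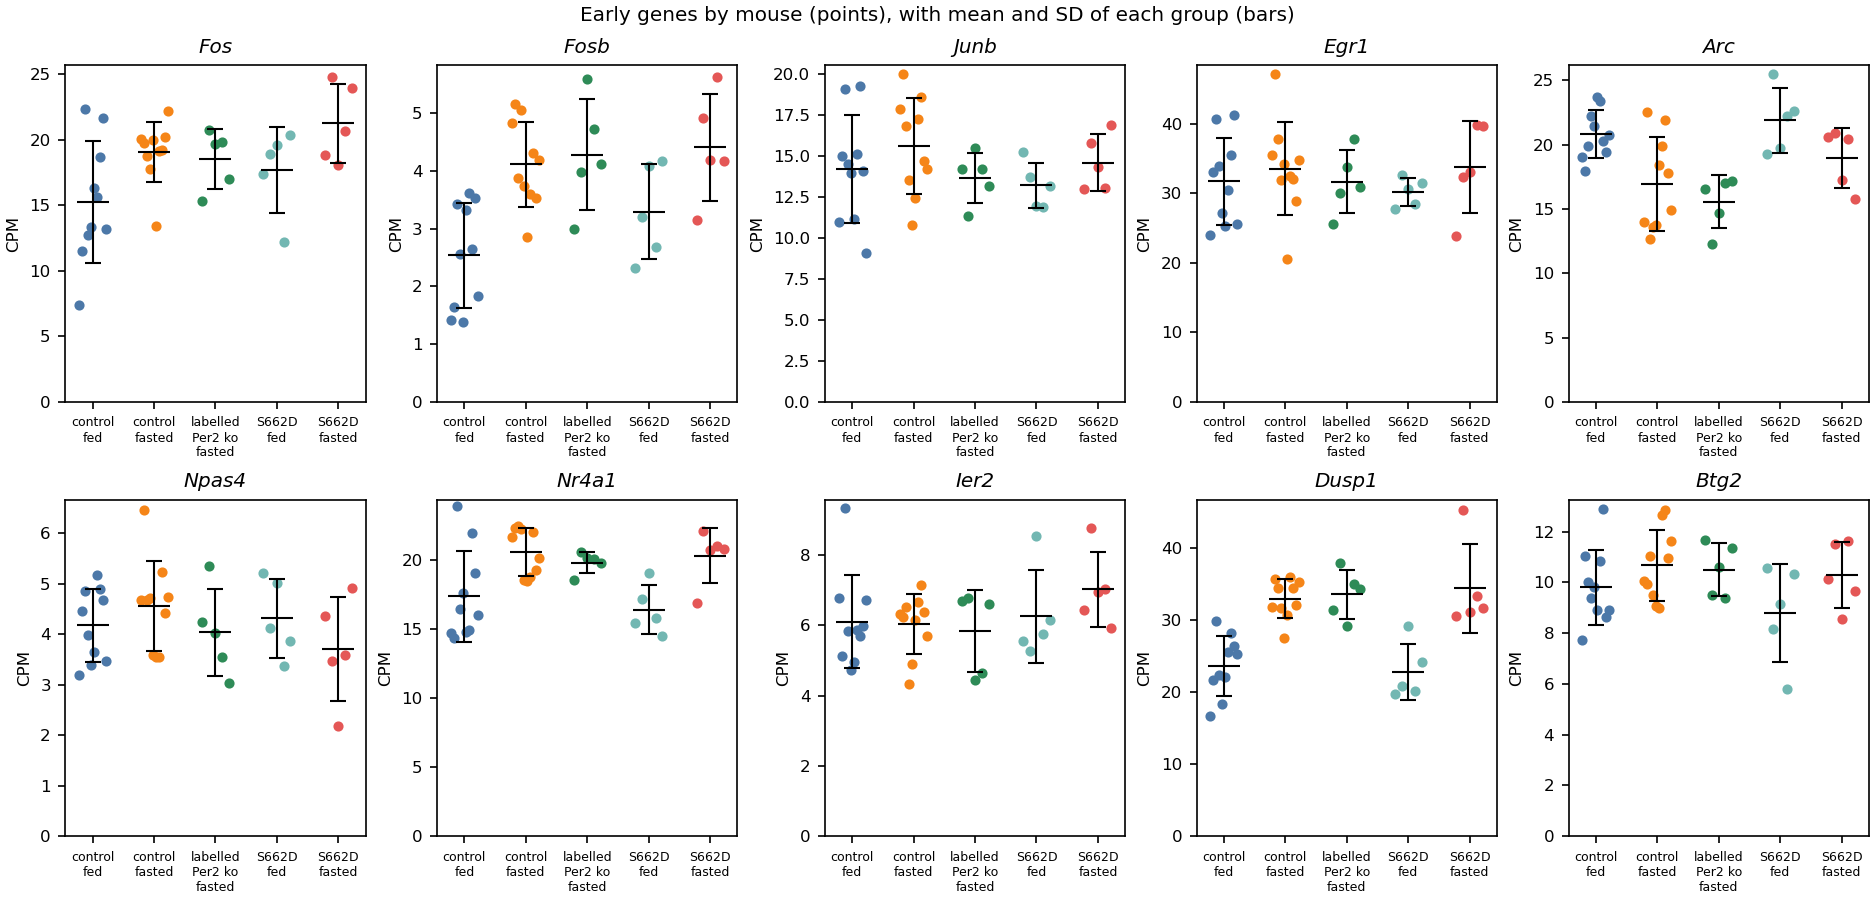
CPM of each early gene (vertical axis, from 0) in each mouse (points), by group, with the group mean and SD (bars). Dusp1 in 9 of 10 fasted controls lies above the highest fed control, and the 5 fasted S662D mice lie above the 5 fed ones.

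The first comparison asked whether the fast changed the early genes in control mice. Dusp1 and Fosb rose, and none of the other 8 passed the test. Thus 2 of 10 genes were called, both higher, where 3.88% of all 18063 genes were called (701 genes), and 2.20% were called higher. A gene is called when its Benjamini-Hochberg adjusted p, over all genes tested by edgeR's quasi-likelihood method, lies below 0.05. The median log2 fold change of the 10 genes was 0.13, beside 0.0023 over all genes, 8 of the 10 were above 0, and 5 had an unadjusted p below 0.05. In RNA from whole tissue, a change in the number of cells that express a gene and a change in RNA per cell cannot be told apart.

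Dusp1 (chr17:26505590-26508519, minus strand) showed the clearest change. Fed controls ran from 16.7 to 29.9 CPM with a median of 23.9, and fasted controls from 27.5 to 36.0 CPM with a median of 33.2. All 10 fasted mice were above the fed median, and 9 were above the highest fed mouse. The mean was 23.7 ± 4.20 CPM (SD, n = 10) fed and 33.0 ± 2.7 CPM (SD, n = 10) fasted. The fitted change was 0.48 on the log2 scale (SE 0.09, 1.39-fold, adjusted p = 0.000519, edgeR).

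Among the AP-1 subunits that belong to the 10 genes, Fosb (chr7:19302696-19310051, minus strand) was the one called. It ran from 1.38 to 3.63 CPM with a median of 2.61 in fed controls, and from 2.86 to 5.16 CPM with a median of 4.04 in fasted controls. All 10 fasted mice lay above the fed median and 7 above the highest fed mouse. On the log2 scale it changed by 0.70 (SE 0.16, 1.62-fold, adjusted p = 0.00501, edgeR). Fos (chr12:85473890-85477273, plus strand) ran from 7.40 to 22.4 CPM with a median of 14.5 in fed controls, and from 13.5 to 22.2 CPM with a median of 19.5 in fasted controls. The fasted range lay inside the fed range, and 9 of 10 fasted mice were above the fed median. Its log2 fold change of 0.32 (SE 0.13) did not pass adjustment (unadjusted p = 0.0238, adjusted p = 0.256, edgeR). Fos was also more spread when fed, with an SD of 4.65 CPM against 2.28 CPM when fasted, a difference that was not tested. Junb (chr8:84974484-84978718, minus strand) ran from 9.10 to 19.3 CPM fed and from 10.8 to 20.0 CPM fasted, and its log2 fold change of 0.13 (SE 0.11) was not called. Of the exon bases of Junb, 7.52% overlap Prdx2 on the other strand. The counting used no strand option, so reads of these genes cannot be told apart there.

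Of the other transcription factors, Nr4a1 (chr15:101266846-101274792, plus strand) lay just outside the threshold. Fed controls ran from 14.4 to 23.9 CPM with a median of 16.3, and fasted controls from 18.5 to 22.5 CPM with a median of 20.9. All 10 fasted mice were above the fed median, while the highest single value, 23.9 CPM, belonged to a fed mouse. The estimate on the log2 scale was 0.24 (SE 0.07, adjusted p = 0.0507, edgeR). Egr1 (chr18:34859823-34864984, plus strand) ran from 24.0 to 41.3 CPM fed and from 20.6 to 47.1 CPM fasted, and Npas4 (chr19:4984355-4989971, minus strand) from 3.20 to 5.17 CPM fed and from 3.54 to 6.46 CPM fasted. The ranges of both genes overlapped widely. Their log2 fold changes were 0.08 (SE 0.12) for Egr1 and 0.13 (SE 0.13) for Npas4, with 95% intervals of -0.15 to 0.31 and -0.12 to 0.37.

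Arc (chr15:74669083-74672570, minus strand) was the one gene of the 10 whose 95% interval lay below 0 (-0.47 to -0.12). It ran from 18.0 to 23.7 CPM with a median of 20.5 in fed controls, and from 12.7 to 22.5 CPM with a median of 16.4 in fasted controls. Of the 10 fasted mice, 6 lay below the lowest fed mouse, and 2 lay above the fed median. Its log2 fold change of -0.29 (SE 0.09) narrowly missed the threshold (adjusted p = 0.0592, edgeR). The estimates of Arc and of Fosb or Dusp1 thus had opposite signs in the same animals. Ier2 (chr8:84661331-84662852, minus strand) ran from 4.72 to 9.34 CPM fed and from 4.33 to 7.15 CPM fasted, with a log2 fold change of -0.01 (95% interval -0.23 to 0.20). Btg2 (chr1:134075170-134079120, minus strand) ran from 7.71 to 12.9 CPM fed and from 9.00 to 12.9 CPM fasted, with a log2 fold change of 0.12 (95% interval -0.06 to 0.30).

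The fasting response was also read within each control set, from 1 fit with the sets as separate groups, which was chosen after seeing the data. In controls 1 to 5, 3 of 10 genes were called, where 8.28% of all genes were, and in controls 6 to 10, 0 of 10 were called by edgeR (1 with an unadjusted p below 0.05), where 3.04% of all genes were. Dusp1 rose by 0.57 on the log2 scale in controls 1 to 5 (adjusted p = 0.00402), and its estimate was 0.40 in controls 6 to 10 (adjusted p = 0.0696). In a fit that left out controls 1 to 5 and kept all other groups, the adjusted p of Dusp1 was 0.0463 (edgeR). Fosb rose by 1.12 in controls 1 to 5 (adjusted p = 0.00053), and its estimate was 0.31 in controls 6 to 10 (adjusted p = 0.421). Fed controls 1 to 5 had the lower Fosb level, 2.09 ± 0.89 CPM (SD, n = 5), against 2.99 ± 0.75 CPM (SD, n = 5) in fed controls 6 to 10. The difference between the Fosb responses was -0.81 (unadjusted p = 0.00956, adjusted p = 0.0717 in edgeR), and of the 10 genes 0 were called for such a difference (1 with an unadjusted p below 0.05), where 10.6% of all genes were. Arc fell by 0.39 in controls 1 to 5 (adjusted p = 0.0409, edgeR), and its estimate in controls 6 to 10 was -0.21 (adjusted p = 0.342). In controls 1 to 5 the fasted Arc values were 12.7, 13.6, 13.7, 14.0 and 22.5 CPM, so 1 mouse stood with the fed ones. Averaged over both feeding states, the control sets did not separate: 0 of 10 early genes were called by edgeR or by DESeq2 (1 with an unadjusted p below 0.05, Arc, at 0.19), where 0% of all genes were called by edgeR.

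Arc is strongly expressed in cortex and hippocampus, so markers of those regions were read beside it. Of the 6 such markers tested, 0 were called on fasting in all controls, with 1 at an unadjusted p below 0.05, where 3.88% of all genes were called. The summed level of the 7 listed markers ran from 159 to 235 CPM over fed and from 148 to 216 CPM over fasted controls, and none of them was at 0 in all 35 libraries. Within controls 1 to 5 the marker Neurod6 fell by 1.04 on the log2 scale (adjusted p = 0.0270, edgeR), being 1.92 ± 1.67 CPM fed and 0.93 ± 0.11 CPM fasted (SD, n = 5 each), with 1 fed mouse at 4.88 CPM. The summed markers ran from 159 to 235 CPM fed and from 148 to 171 CPM fasted in controls 1 to 5, and from 172 to 188 CPM fed and from 191 to 216 CPM fasted in controls 6 to 10. Their part in the Arc values was not tested.

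Markers of other cell types that moved with the fast in controls were read beside the early genes, as log2 fold changes. In this comparison 3.88% of all genes were called. Microglia markers were lower for 2 of 5 genes, Cx3cr1 at -0.41 (adjusted p = 1.13e-05) and P2ry12 at -0.34 (adjusted p = 0.000729, edgeR), and their summed level ran from 127 to 152 CPM fed and from 107 to 144 CPM fasted. Of 6 endothelial and mural cell markers tested, Cldn5 was lower, at -0.43 (adjusted p = 4.39e-05, edgeR), and the 7 listed summed to 160 to 184 CPM when fed, against 142 to 163 CPM when fasted. Of 4 astrocyte markers, Aqp4 was lower, at -0.33, and Aldh1l1 higher, at 0.20. The thalamic marker Lef1 was lower, at -0.36 (1 of 6 called) and the oligodendrocyte marker Mobp higher by 0.15 (1 of 5 called). Agrp and Npy, the peptides of hunger neurons, were higher by 0.61 and 0.39 (2 of 12 hypothalamic markers called). Within controls 1 to 5, Agrp (0.89), Crh (0.69), Npy (0.50) and Sim1 (0.34) were called higher. Within controls 6 to 10, Agrp and Npy were not called, and Otp (-0.41) and Sim1 (-0.39) were lower. The difference between the sets was called for Sim1 (-0.73, adjusted p = 0.00468) and Otp (-0.60, adjusted p = 0.0133, edgeR), where 10.6% of all genes were. With all controls read together, 0 of 5 general neuronal and 0 of 6 choroid plexus markers were called, and 0 had an unadjusted p below 0.05 (edgeR). The summed choroid plexus level ranged from 19.9 to 960 CPM over the fed and from 19.4 to 1540 CPM over the fasted libraries. Within controls 1 to 5, where 8.28% of all genes were called, Rbfox3 (neuronal, -0.18) and Aif1 (microglial, -0.85) were also lower. So were Mag (-0.34), Mog (-0.26) and Mbp (-0.23), of the oligodendrocyte list. The astrocyte marker Slc1a3 was higher there (0.17). None of these was called within controls 6 to 10 (3.04% of all genes), where Mobp was higher (0.21). Among the neuronal, glial and endothelial markers, the difference between the sets was called for Mag (0.51), Mog (0.49), Mbp (0.38), Aif1 (1.03) and Tmem119 (0.45). It was also called for Ly6c1 (0.39) and Slc1a3 (-0.26), beside the 10.6% of all genes. None of the microglial, endothelial and mural or choroid plexus markers was at 0 in all 35 libraries. Their part in the early gene values was not tested.

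**Figure D2:**
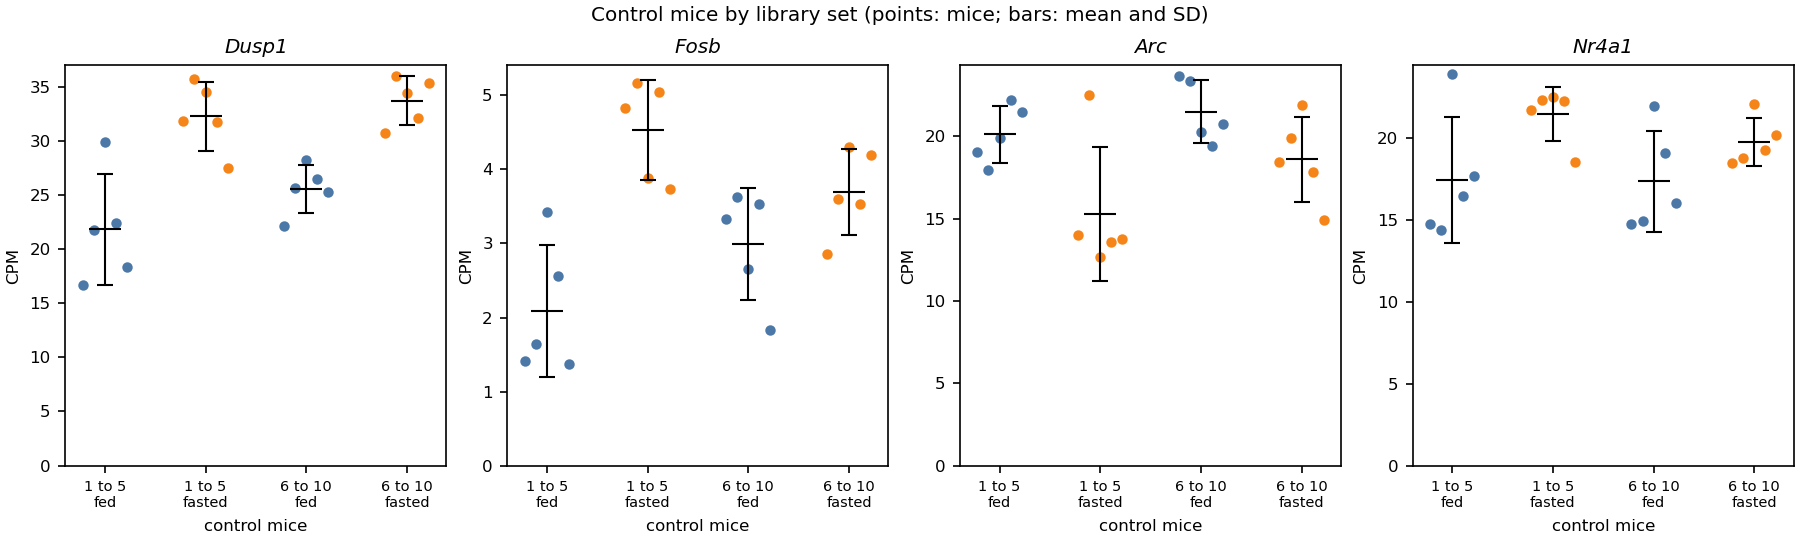
CPM (vertical axis, from 0) of Dusp1, Fosb, Arc and Nr4a1 in fed and fasted control mice 1 to 5 and 6 to 10 (points), with mean and SD (bars, n = 5 each). Dusp1 means are higher when fasted in both sets, and Fosb is lowest in fed controls 1 to 5.

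The same fast was examined in PER2-S662D mice. Dusp1 was again called and was the one gene called of 10, where 2.64% of all genes were called in S662D mice. The 5 fed mice had 19.7, 20.1, 20.9, 24.1 and 29.2 CPM of Dusp1, and the 5 fasted mice 30.6, 31.1, 31.8, 33.4 and 45.3 CPM. The groups did not overlap. The log2 fold change of Dusp1 was 0.60 (SE 0.12, 1.52-fold, adjusted p = 0.00254, edgeR). Without the mouse at 45.3 CPM it was 0.48 (adjusted p = 0.0197). In the 4 S662D libraries without the additional digit it was 0.51 and not called (adjusted p = 0.634, edgeR), where 7 of 18746 genes were called. For Nr4a1 the fed values were 14.5, 15.5, 15.8, 17.2 and 19.1 CPM and the fasted values 16.9, 20.7, 20.8, 21.0 and 22.2 CPM. Of the fasted mice 4 of 5 lay above the highest fed mouse, and the log2 fold change of 0.31 (SE 0.10) was not called (adjusted p = 0.105, edgeR).

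For Fosb the fed S662D values were 2.33, 2.69, 3.21, 4.09 and 4.17 CPM and the fasted values 3.15, 4.18, 4.19, 4.91 and 5.62 CPM. Although 4 of 5 fasted mice were above the highest fed one, the log2 fold change of 0.42 (SE 0.21) was not called (adjusted p = 0.358, edgeR). For Arc the fed values were 19.3, 19.8, 22.3, 22.6 and 25.5 CPM and the fasted values 15.8, 17.2, 20.4, 20.6 and 20.9 CPM. All 5 fasted mice lay below the fed median, with an estimate of -0.21 (SE 0.12, adjusted p = 0.449, edgeR). The other 6 genes had log2 fold changes from -0.19 (Npas4) to 0.27 (Fos), and none was called. The median over the 10 genes was 0.21, beside 0.00007 over all genes.

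**Figure D3:**
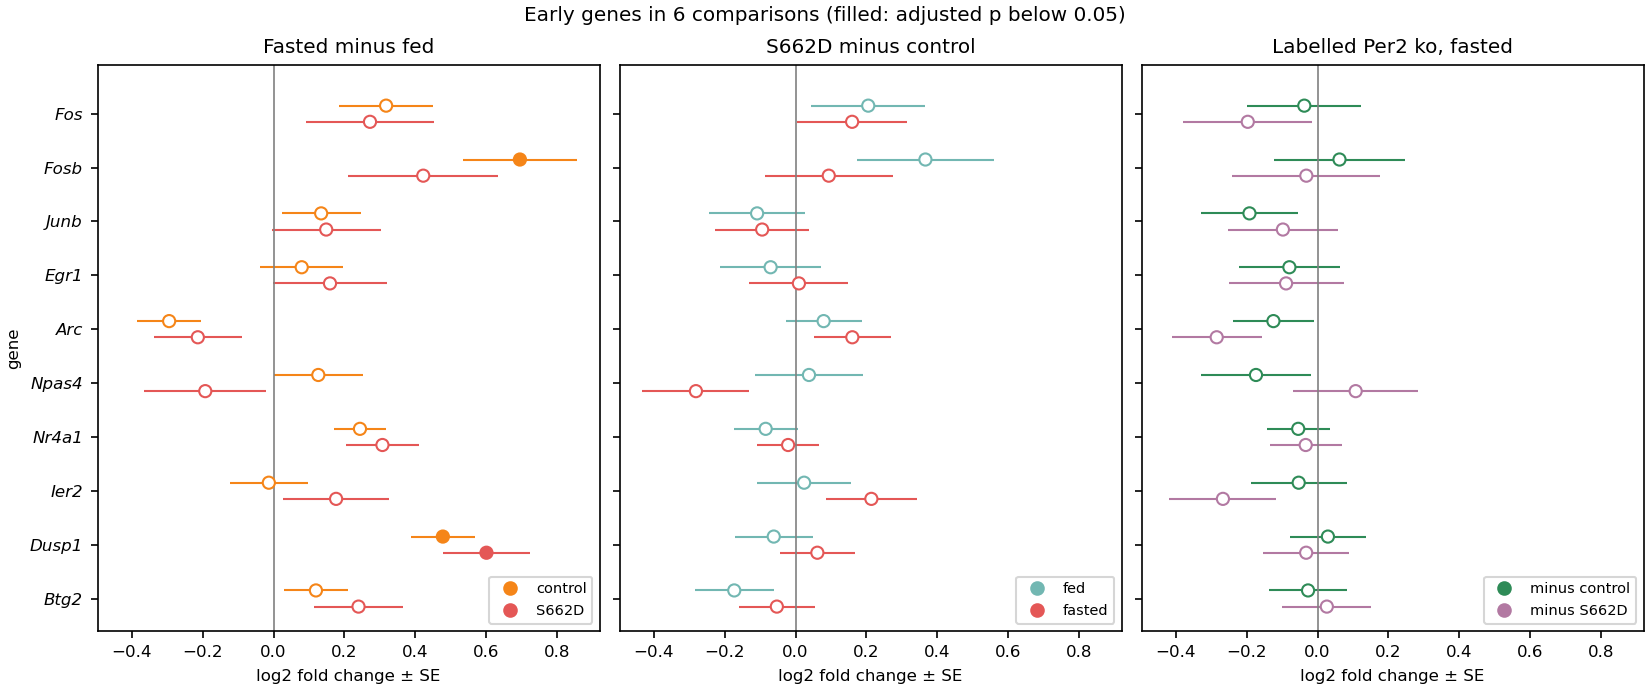
Log2 fold changes (horizontal axis) with SE (bars) of the 10 early genes (vertical axis) in 6 comparisons, filled where the adjusted p is below 0.05. Filled points are Dusp1 and Fosb for fasting in controls and Dusp1 for fasting in S662D, and no gene is filled in a comparison of genotypes.

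Whether the fasting response differed between S662D and control mice was tested as an interaction. Of the 10 early genes 0 were called in edgeR, 0 had an unadjusted p below 0.05, and DESeq2 also called 0; over all genes 0% were called, while 1151 genes had an unadjusted p below 0.05. For Dusp1 the response in S662D minus that in controls was 0.12 with a 95% interval of -0.18 to 0.42. For Fosb it was -0.27 with a 95% interval of -0.79 to 0.25. The most negative estimate was that of Npas4, at -0.32 with a 95% interval of -0.74 to 0.10. The Fosb interval reaches past the size of the Fosb response in controls, and the Dusp1 interval does not reach that of Dusp1.

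The genotypes were then compared within each feeding state. These comparisons share their control mice with the fasting comparison. In fed mice, S662D against control called 0 of 10 early genes in edgeR and in DESeq2, with 0 at an unadjusted p below 0.05, where 4.69% of all genes were called. The log2 fold changes ran from -0.17 (Btg2) to 0.37 (Fosb, 95% interval -0.01 to 0.75). For Dusp1 the difference was -0.06 with a 95% interval of -0.28 to 0.15. In fasted mice, S662D against control again called 0 of 10 early genes in edgeR and in DESeq2, with 0 at an unadjusted p below 0.05, where 5.57% of all genes were called. Estimates ran from -0.28 (Npas4, 95% interval -0.58 to 0.01) to 0.21 (Ier2, 95% interval -0.04 to 0.47). Fasted S662D mice had 2.19, 3.48, 3.59, 4.37 and 4.92 CPM of Npas4, and 2 of them lay below the lowest fasted control. Dusp1 in fasted mice differed by 0.06 with a 95% interval of -0.14 to 0.27.

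In the fasted mice labelled Per2 knockout, 0 of 10 early genes were called against fasted controls by edgeR or by DESeq2, with 0 at an unadjusted p below 0.05. Over all genes 0.0277% were called (5 genes). The comparison is of libraries by their label, with which Per2 RNA did not go. Dusp1 in these mice was 29.2, 31.4, 34.4, 35.1 and 38.0 CPM, and 4 of the 5 lay above the highest fed control. Fosb was 3.00, 3.98, 4.12, 4.73 and 5.59 CPM, and Nr4a1 was 18.6, 19.8, 20.1, 20.1 and 20.6 CPM. Their differences from fasted controls were 0.03 for Dusp1 (95% interval -0.18 to 0.24), 0.06 for Fosb (95% interval -0.30 to 0.43) and -0.05 for Nr4a1 (95% interval -0.23 to 0.12). Arc was 12.3, 14.7, 16.5, 17.0 and 17.2 CPM, with a difference of -0.12 from fasted controls (95% interval -0.35 to 0.10).

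Against fasted S662D mice, the labelled knockout likewise had 0 of 10 early genes called by edgeR or by DESeq2, where 7.34% of all genes were called. Here 1 of the 10 had an unadjusted p below 0.05, Arc, at -0.28 (unadjusted p = 0.0316, adjusted p = 0.172, edgeR). The ranges of Arc overlapped, with 3 of the 5 labelled knockout mice between 16.5 and 17.2 CPM and the lowest fasted S662D mouse at 15.8 CPM. For the other 9 genes the estimates ran from -0.27 (Ier2) to 0.11 (Npas4).

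The 10 genes were set beside other genes of the same pathway. Of 24 other rapid early genes, 7 rose and 1 fell on fasting in controls, where 3.88% of all genes were called. Their median log2 fold change was 0.21, beside 0.0023 over all genes. Maff, a small MAF transcription factor, rose by 1.08 (adjusted p = 6.22e-07, edgeR), from 2.25 ± 0.55 to 4.76 ± 0.78 CPM (SD, n = 10 each). Csrnp1, a nuclear protein induced by AXIN1, rose by 0.73, Trib1, a pseudokinase, by 0.50, Gadd45g, a growth arrest gene, by 0.47, and Klf4, a zinc finger factor, by 0.42. In S662D mice 6 of the 24 rose and 1 fell, with a median of 0.03, where 2.64% of all genes were called. Here Maff rose by 1.14, Gadd45g by 0.85, Csrnp1 by 0.75, Trib1 by 0.70 and Cyr61 by 0.69. Maff, Csrnp1 and Trib1 were called on fasting in both control sets read alone, at 1.08 and 1.08 for Maff, 0.78 and 0.69 for Csrnp1, and 0.56 and 0.44 for Trib1.

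Of the 24, 4 were called for a difference in fasting response between the control sets (2 larger and 2 smaller in controls 6 to 10), where 10.6% of all genes were. The response of Klf4 differed by -0.71 (adjusted p = 0.0261) and that of Fosl2, an AP-1 subunit, by -0.52 (adjusted p = 0.0332), being smaller in controls 6 to 10, whereas those of Gadd45g and Jund were larger there, by 0.67 (adjusted p = 0.00468) and 0.48 (adjusted p = 0.0206, edgeR). In S662D against control, 2 of the 24 were higher when fed, Fosl2 by 0.42 and Ier5 by 0.26, where 4.69% of all genes were called. When fasted, 0 of 24 were called (6 with an unadjusted p below 0.05, edgeR), where 5.57% of all genes were. Jun and Jund, which form AP-1 with Fos proteins, had differences of -0.45 and -0.36 in the labelled knockout against S662D mice, and were the 2 of 24 called, where 7.34% of all genes were.

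Of 14 later activity-dependent genes, 3 rose and 0 fell on fasting in controls, with a median of 0.08, where 3.88% of all genes were called. The 3 were Vgf, a secreted neuropeptide precursor, at 0.37, Pcsk1, a prohormone convertase, at 0.20, and Scg2, a granin, at 0.14. Vgf ran from 206 to 261 CPM in fed and from 260 to 358 CPM in fasted controls. Within controls 1 to 5, 5 of the 14 were called, all higher, where 8.28% of all genes were called. Vgf was at 0.51, Pcsk1 at 0.36 and Scg2 at 0.18. Within controls 6 to 10, 0 of the 14 were called (1 with an unadjusted p below 0.05, edgeR), where 3.04% of all genes were. The difference between the sets was called for 2 of the 14, Homer1 at -0.42 (adjusted p = 0.0132) and Pcsk1 at -0.32 (adjusted p = 0.0255, edgeR), beside the 10.6% of all genes. In S662D mice 1 of the 14 was called, Vgf, which rose by 0.36, where 2.64% of all genes were called. Between genotypes, S662D against control called Nfil3 higher when fed, by 0.34, where 4.69% of all genes were called. When fasted it called Nfil3 (0.44) and Nptx2 (0.23) higher and Scg2 (-0.19) lower, where 5.57% of all genes were called. Called in the labelled knockout against S662D were Nfil3 (-0.35), Nptx2 (-0.27), Pcsk1 (0.30), Scg2 (0.27) and Rgs2 (0.26), where 7.34% of all genes were called. Of 19 upstream signalling and transcription factor genes, such as those for CREB, its co-activators, SRF and MAP kinases, 0 were called on fasting in controls (2 with an unadjusted p below 0.05) and 0 in S662D mice (1 with an unadjusted p below 0.05, edgeR), with medians of -0.05 and -0.06. Camk4, a calcium-dependent kinase, was the 1 gene of the 19 called in S662D against control mice, at 0.32 when fed and 0.24 when fasted, shares near the 4.69% and 5.57% of all genes.

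A list of 17 glucocorticoid-induced genes rose as a whole on fasting, 17 of 17 in controls with a median of 1.20, and 17 of 17 in S662D mice with a median of 1.30. This list was picked on these libraries, so its direction is not independent evidence. It is given because Dusp1 is also a known glucocorticoid target. Dusp1 changed by 0.48 in controls and 0.60 in S662D mice, below the list medians of 1.20 and 1.30. The list ran from 0.32 to 2.64 in controls and from 0.44 to 2.61 in S662D mice. As the list was picked on these libraries, the place of Dusp1 in that range is not evidence of likeness. The part of glucocorticoids in the Dusp1 values was not tested.

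**Figure D4:**
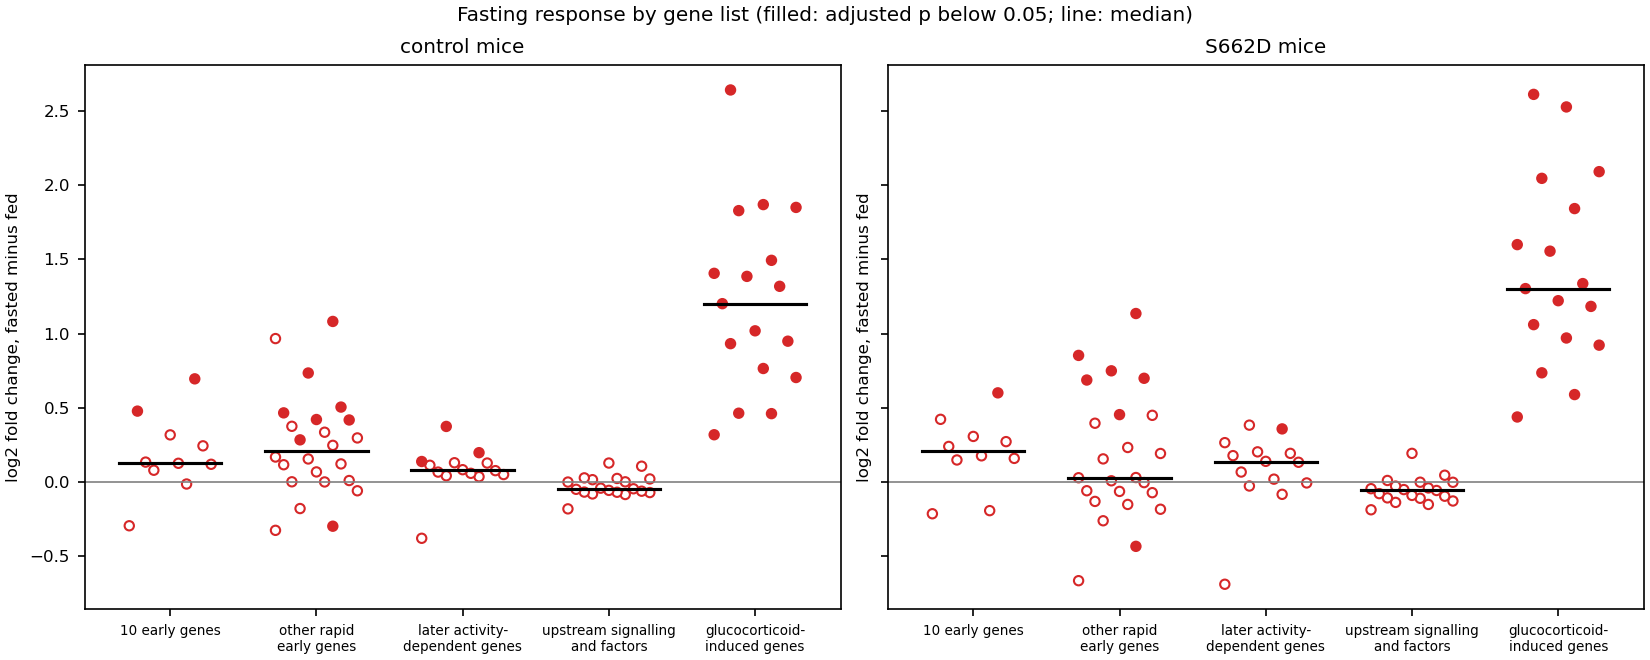
Log2 fold change on fasting (vertical axis) of each gene (points) in the 10 early genes and 4 other lists, in control and S662D mice, filled where called, with the list median (line). The early genes lie around medians of 0.13 and 0.21, and the glucocorticoid-induced genes around 1.20 and 1.30.

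The early genes varied more between mice of 1 group than most genes of like level. The SD of log2 CPM within groups was 0.31 for Fos, 0.39 for Fosb, 0.26 for Junb and 0.27 for Egr1. It was higher than in 98.7% of genes of like level for Fos and for Egr1, 96.6% for Junb, 96.3% for Dusp1, 95.1% for Fosb and 94.8% for Arc. The lowest shares were 82.7% for Npas4 and 83.4% for Ier2. By the mean standardised level of the 10 genes, fed control 3 stood highest (1.50 SD) and fed control 1 lowest (-1.47 SD) of all 35 mice within their groups. Fed control 3 had the highest Fos (22.4 CPM), Ier2 (9.34 CPM), Nr4a1 (23.9 CPM) and Dusp1 (29.9 CPM) of its group. Fed control 1 had the lowest Fos (7.40 CPM), Dusp1 (16.7 CPM), Egr1 (24.0 CPM), Npas4 (3.20 CPM) and Btg2 (7.71 CPM).

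Pairs of the early genes were compared from mouse to mouse within a group. Across the 10 fed controls, 39 of the 45 pairs of early genes had a Pearson r above 0 on log2 CPM, with a median r of 0.46, and across the 10 fasted controls 40 of 45, with a median r of 0.44. Over all pairs of the 15479 genes that averaged 1 CPM or more, 49.9% had an r above 0 in fed and 50% in fasted controls. Genes of 1 library share its depth and dissection, so pairs are not independent of each other. After adjustment over the 45 pairs, 0 pairs were called in fed controls by Pearson's r (17 with an unadjusted permutation p below 0.05) and 0 by Spearman's rho. The highest pair was Fos with Dusp1, at r = 0.85 (permutation p = 0.00159, adjusted p = 0.0622) and rho = 0.82 (permutation p = 0.00615, adjusted p = 0.0762), and r was 0.63 without the 2 mice farthest from the median of Fos. Read alone, r was 0.89 in controls 1 to 5 and 0.39 in controls 6 to 10.

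In fasted controls 1 pair was called, Npas4 with Nr4a1, at r = 0.84 (permutation p = 0.00059, adjusted p = 0.0266) and rho = 0.77 (permutation p = 0.0133, adjusted p = 0.196). Its r was 0.85 without the 2 mice farthest from the median of Npas4, 0.77 in controls 1 to 5 and 0.92 in controls 6 to 10. With 1 fasted mouse left out its r was 0.80 to 0.87, but it was called in 3 of 10 cases (without mouse 3, 7 or 10) and lost in the other 7 (adjusted p of up to 0.135), and it was lost with each control set centred on its own mean (r = 0.83, adjusted p = 0.0684, exact or permutation tests). The same pair had r = 0.46 in fed controls (permutation p = 0.186, adjusted p = 0.363). Fos with Dusp1, high in fed controls, had r = 0.28 in fasted controls (permutation p = 0.411, adjusted p = 0.651), and the difference between the states was not tested. In fed controls Arc had the lowest median r with the other 9 genes, at -0.06, followed by Ier2 at 0.22. In fasted controls Ier2 was lowest at 0.16, followed by Arc at 0.26 and Fos at 0.29. The other 8 had medians of 0.40 to 0.70 when fed and of 0.29 to 0.58 when fasted.

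**Figure D5:**
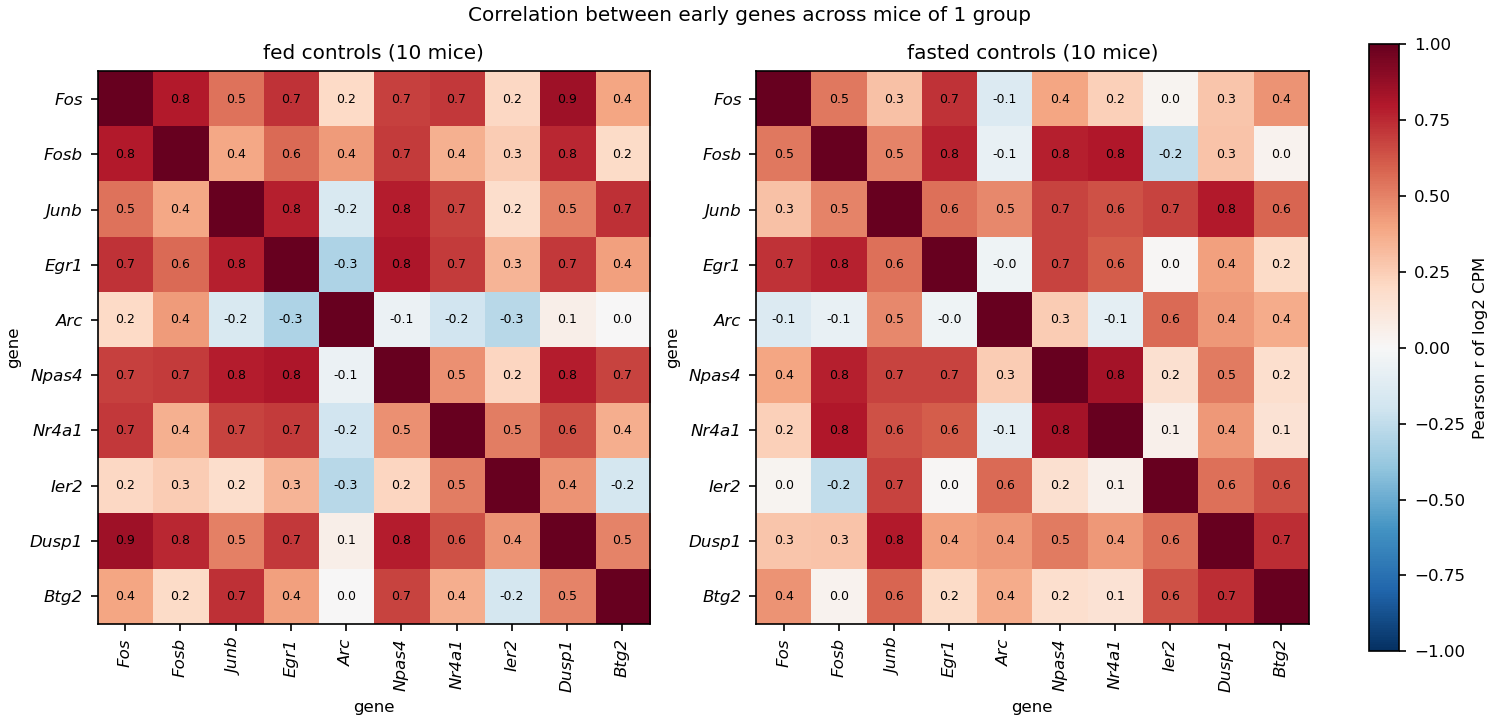
Pearson r of log2 CPM (colour and number) between each pair of early genes (both axes) across 10 fed and 10 fasted control mice. Most of the 45 pairs are above 0 (39 fed and 40 fasted), and the fed row of Arc is near or below 0 for most partners.

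The mean standardised level of the 10 genes, centred within group, was compared with 15469 other genes over the 35 mice, as a description with no test. The genes most like it were Plk2 (r = 0.58), March11 (r = 0.58), 1700016P03Rik (r = 0.56), Egr4 (r = 0.54), Ovca2 (r = 0.53), Ppp2r2d (r = 0.53), Gla (r = 0.53), Sik1 (r = 0.53), Zfp862-ps (r = 0.52) and Gimap6 (r = 0.52). The 95th percentile of r over all genes compared was 0.26. Of these 10, Egr4 and Sik1 belong to the list of other rapid early genes and Plk2 to that of later activity-dependent genes. The median r was 0.14 over 22 other rapid early genes, 0.11 over the 17 glucocorticoid-induced genes, 0.07 over 13 later activity-dependent genes and 0.05 over 18 upstream genes, beside -0.0022 over all genes compared.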

How the data were processed

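For each of the 35 libraries the authors deposited a table of raw counts by gene. Per the file headers, featureCounts 2.0.1 counted paired fragments by gene name on GENCODE vM12 (mm10), took each alignment of reads that map more than once, and used no strand option. STAR 2.7.10b is named in the submitters' processing notes. Counting every alignment raises genes with near-identical copies. Of the 10 genes, Junb alone shared 50-base words with another gene (5.76%, with Prdx2). Groups were taken from the labels. Nothing in them says which mice shared a litter or a handling day, so p-values measure the spread between these samples.

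The counts were tested with edgeR 4.0.16 in R 4.3.3 (filterByExpr by group with a minimum count of 10, TMM, robust glmQLFit, glmQLFTest), with all 35 libraries in 1 fit with a mean per group and no covariate. Benjamini-Hochberg adjustment ran over 18063 genes, and genes were called at 0.05. CPM is scaled by TMM, and log2 CPM uses a prior count of 2. Correlations used 100000 two-sided permutations. Alternatives were DESeq2 1.42.0, other scalings and filters, library sets, a replicate block and leaving out each mouse. No 2 libraries held identical values, and replicates differed by more than sampling noise (chi-square per degree of freedom of at least 2.53). On simulated counts, 96% of genes changed by 0.5 (log2) were recovered for fasting in controls (17883 genes) and 91% in S662D (17900 genes). The changed genes were drawn at random from expressed genes, each with its own spread. The 10 early genes varied more than most genes of like level, so these shares do not hold for them.

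The 10 genes, the other lists and the markers were chosen with earlier results of these data known. All 10 genes are named in the comparisons. Of each other list at most the 5 called genes with the largest change are named. The most alike genes are the 10 with the highest r and a mean of at least 1 CPM. Promoter sequences come from RefSeq (GRCm38.p6).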

Additional observations from a re-analysis of the deposited data

Results flagged for a closer look

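Single mice stood far from the others of their group in 5 of the 50 groups of values examined (10 genes in 5 groups), by the size of the gap to the nearest mouse relative to the group's range, and chance gives about 1 in 20. Fos in fasted control 6 was 13.5 CPM, while the other 9 ran from 17.8 to 22.2 CPM. Nr4a1 in fasted S662D mouse 1 was 16.9 CPM, against 20.7 to 22.2 CPM in the other 4. Ier2 in fed control 3 was 9.34 CPM, against 4.72 to 6.77 CPM in the other 9. Ier2 in fed S662D mouse 3 was 8.56 CPM, against 5.26 to 6.15 CPM in the other 4. Dusp1 in fasted S662D mouse 2 was 45.3 CPM, against 30.6 to 33.4 CPM in the other 4, all of them above the 5 fed mice.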

How the results depend on the processing

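For fasting in controls, Dusp1 was called in 31 of 32 alternatives and Fosb in 29 of 32, with no change of sign. The number of early genes called was 4 with DESeq2's Wald test (Dusp1, Fosb, Arc and Nr4a1), 1 with controls 6 to 10 only (Dusp1), 0 within controls 6 to 10 in the fit with all libraries (added after seeing the data), and 2 to 4 when 1 mouse was left out, with 4 without fasted control 7. Fosb was lost with controls 6 to 10 only (adjusted p = 0.400, edgeR), a fit that left out controls 1 to 5 and kept the other groups. Over all genes, DESeq2's Wald test called 820 of 18063, and the fit without controls 1 to 5 called 304 of 17812. Nr4a1 was called in 9 of 32 alternatives, 6 of which left out 1 mouse (fed controls 3, 8 or 9, or fasted controls 5, 6 or 7), with its lowest adjusted p of 0.00311 without fed control 3. Arc was called, as lower, in 7 of 32, including without fed control 2 and without fasted controls 2, 7 or 8, with its lowest adjusted p of 0.0123 without fasted control 2. With the control set as a term and all controls kept, Arc was also called (-0.30, adjusted p = 0.0362, edgeR), where 737 of 18063 genes were. For fasting in S662D, 0 early genes were called in the 4 S662D libraries without the additional digit (Dusp1 0.51, adjusted p = 0.634, edgeR), where 7 of 18746 genes were called. With 1 mouse left out, 1 to 2 early genes were called, with Nr4a1 added without fasted S662D mouse 1 (adjusted p = 0.0360, edgeR). With the 6 libraries that carry the digit only, S662D against control called 1 early gene when fed (Btg2, -0.36, adjusted p = 0.0491, edgeR), where 3106 of 18421 genes were called. When fasted it called 1 early gene (Npas4, -0.56, adjusted p = 0.0272, edgeR), where 3148 of 18421 genes were called. The interaction, the labelled knockout comparisons and the control sets gave 0 early genes in each alternative run. Correlated pairs called numbered 9 in fed and 0 in fasted controls with each control set centred on its own mean, and 0 to 2 in both when 1 mouse was left out. In fed controls 2 pairs were called without mouse 5 or 10, and in fasted controls 2 without mouse 3, 7 or 10 and 0 without any of the other 7, so that Npas4 with Nr4a1 was lost in those 7 and with the sets centred. The cause of these moves was not tested.

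Correlations of same-numbered mice were -0.19 to 0.06 between fed and fasted controls, -0.11 to 0.16 between fed and fasted S662D, and -0.05 to 0.24 between fed controls and fed S662D, where 3 of 5 were over 0.1 and 3 of 5 mice correlated best with their own number. In no pair of groups was every correlation over 0.1, so the numbers were not taken as pairs. With the replicate block, 2 early genes were called for fasting in controls (Dusp1 and Nr4a1, while Fosb had an adjusted p of 0.0545), where 562 of 16909 genes were. For fasting in S662D 1 was called (Nr4a1, while Dusp1 had 0.0658), where 381 of 17479 genes were. In S662D against control 1 was called when fed (Fosb, 0.69, adjusted p = 0.0328, edgeR), where 2347 of 17335 genes were. When fasted 1 was called (Arc, 0.32, adjusted p = 0.0496, edgeR), where 1321 of 17392 genes were. Fosb and Npas4 rest on 26 to 141 and 49 to 166 counts per library, which limits what can be detected for them.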
